A study of Mus musculus with 8 samples.

Results

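The expression of 32 listed genes of cholesterol synthesis, sterol sensing, sterol uptake, efflux and oxysterol formation was examined in lung club cells with and without adipose triglyceride lipase. A gene was represented by a probe set annotated with its symbol alone, and where several such probe sets existed by the one with the highest mean over 8 arrays. By this rule 29 of the 32 listed genes had a value, of 22180 genes in all. Idi1 was annotated only together with a second gene, Acat2 and Soat1 had no probe set annotated with them here, and these 3 genes were not analysed. All 29 genes lay above the filter on low values and were among the 13112 genes tested.

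Club cells are secretory cells of the conducting airways. They were isolated from lungs of Atgl KO/cTg mice, which lack Atgl (now Pnpla2), and of wt/cTg mice. Both genotypes carry cTg, a term the labels do not expand, so neither group is free of it. There were 4 pools per genotype, each of 3 or 4 mice on a standard chow diet, 16 Atgl KO/cTg mice aged 38 to 46 weeks and 14 wt/cTg mice aged 41 to 48 weeks. Pools are numbered here in the order of the samples, and equal numbers were not treated as pairs. Each array held 1 pool, and the p-values measure the spread between pools.

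Cells make cholesterol from acetyl-CoA in the mevalonate and sterol pathway, take it up from lipoproteins, and export it to acceptors outside the cell. The factor SREBP2, encoded by Srebf2, switches on the synthesis enzymes and lipoprotein uptake when membrane sterol is low, and the INSIG proteins hold it back when sterol is plentiful. The liver X receptors respond to oxysterols and switch on efflux genes such as Abca1 and Abcg1. In the lung, cholesterol is a component of surfactant, and macrophages handle much of the sterol that is taken up.

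Promoter sequences are shown for 3 genes. Hmgcs1 is the synthase that feeds the mevalonate pathway. Among the 25 listed genes with a window, only its window held the letters of a sterol regulatory element. Ch25h and Cyp27a1 are the oxysterol enzymes with the largest genotype differences, in opposite directions. The windows are from RefSeq (GRCm38.p6), run from 250 bases before to 50 bases after a gene's start, and are written 5′ to 3′ on the gene's own strand. The Hmgcs1 window is chr13:119690101-119690400 on the plus strand, the Ch25h window chr19:34475099-34475398 on the minus strand and the Cyp27a1 window chr1:74713285-74713584 on the plus strand. Capitals mark matches to TCACNCCAC (the sterol regulatory element) and to CCAAT (the NF-Y box), which reads ATTGG on the opposite strand.
Hmgcs1: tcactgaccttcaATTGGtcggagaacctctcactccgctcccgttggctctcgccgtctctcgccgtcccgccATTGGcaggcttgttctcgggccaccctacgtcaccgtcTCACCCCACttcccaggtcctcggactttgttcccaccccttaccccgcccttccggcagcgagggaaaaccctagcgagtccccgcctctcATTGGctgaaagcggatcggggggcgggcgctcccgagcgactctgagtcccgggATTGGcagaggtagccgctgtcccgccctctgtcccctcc
Ch25h: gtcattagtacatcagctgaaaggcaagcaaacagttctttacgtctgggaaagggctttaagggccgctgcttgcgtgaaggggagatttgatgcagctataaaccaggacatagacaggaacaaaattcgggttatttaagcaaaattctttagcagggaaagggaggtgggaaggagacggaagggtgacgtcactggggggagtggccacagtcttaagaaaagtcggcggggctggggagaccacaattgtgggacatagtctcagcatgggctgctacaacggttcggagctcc
Cyp27a1: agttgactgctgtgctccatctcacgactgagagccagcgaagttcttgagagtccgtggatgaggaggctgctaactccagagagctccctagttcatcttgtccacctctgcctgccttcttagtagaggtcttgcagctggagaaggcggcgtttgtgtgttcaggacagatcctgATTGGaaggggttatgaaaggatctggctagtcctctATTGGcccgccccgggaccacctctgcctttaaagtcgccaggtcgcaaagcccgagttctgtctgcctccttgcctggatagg

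In the Hmgcs1 window the sterol regulatory element letters lay at bases 114 to 122, counted from the 5′ end, among 4 NF-Y boxes. The Cyp27a1 window held 2 NF-Y boxes and the Ch25h window neither motif. Windows were found for 25 of the 32 listed genes, and not for Fdps, Fdft1, Sqle, Stard4, Npc1, Abcg1 and Scarb1. Where a gene had several windows, the most upstream one was counted, and both strands were searched. TCACNCCAC stood in 1 of 15 synthesis windows and in 1.17% of windows of protein-coding genes. CCAAT stood in 13 of the 15 synthesis windows (86.7%), in 7 of the 10 other windows (70%, Abca1, Apoe and Ch25h lacking it) and in 39.2% of windows of protein-coding genes. The GC box GGGCGG stood in 14 of 15 synthesis windows, in 8 of the 10 others and in 46.3% of protein-coding windows. The letters GGTCA repeated with 4 bases between them stood in 0 of the 25 windows and in 0.04% of protein-coding windows. In the liver X receptor element the 4 bases stand between repeats of AGGTCA, and that element was not searched for. These are matches of letters, and the arrays did not measure binding.

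As a check of the labels, Pnpla2 itself read 6.99, 7.16, 7.09 and 6.70 (log2 signal) in the Atgl KO/cTg pools and 8.70, 8.63, 8.62 and 8.86 in the wt/cTg pools, and it passed limma's threshold (log2 difference -1.72, SE 0.11, adjusted p = 0.000116). Where its probes lie relative to the deletion is not known here. The club cell markers were present: the mean log2 signal of 10 such genes was 11.984 to 12.074 in Atgl KO/cTg and 11.777 to 11.981 in wt/cTg. The 2 ranges thus did not overlap, though by little. Of the 10 markers 8 lay higher and 2 lower in Atgl KO/cTg (median log2 difference 0.12), and none passed limma's adjusted threshold. Marker lists of other cell types were also present. All 12 alveolar type 2 markers lay lower in Atgl KO/cTg (median log2 difference -0.45), and their mean log2 signal was 10.21 to 10.51 in Atgl KO/cTg against 10.64 to 11.12 in wt/cTg, with no overlap. In these bulk samples fewer cells of a type and less RNA per cell cannot be told apart.

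Sterol genes differed little between the genotypes, with the 2 oxysterol enzymes standing at opposite ends. Ch25h had the highest log2 difference of the 29 genes (0.65) and Cyp27a1 the lowest (-0.37), and 25 of the 29 lay within 0.2 of 0. None of the 29 passed limma's adjusted threshold, against 0.0991% of all genes tested (13 genes). An unadjusted limma p under 0.05 was found for 4 of 29, against 7.95% of all genes (1043 genes), namely Ch25h, Cyp27a1, Npc1 and Pmvk. This count was 2 when pool 1 or pool 3 of Atgl KO/cTg, or pool 2 or pool 4 of wt/cTg, was left out, 6 without wt/cTg replicate 3, and 1 without Atgl KO/cTg pool 2 and wt/cTg pool 4 together. With all 8 arrays the count was also 2 without the variance trend, and with a score of sex-linked transcripts as a covariate. Of the 4 genes, 1 was higher in Atgl KO/cTg, where 3.39% of all genes were, and 3 were lower, where 4.56% of all genes were. The genotypes did not overlap for 3 of 29 genes, Ch25h, Cyp27a1 and Dhcr7, against 4.35% of all genes tested. The median log2 difference of the 29 genes was -0.02, and that of all genes tested was -0.0073.

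**Figure D1:**
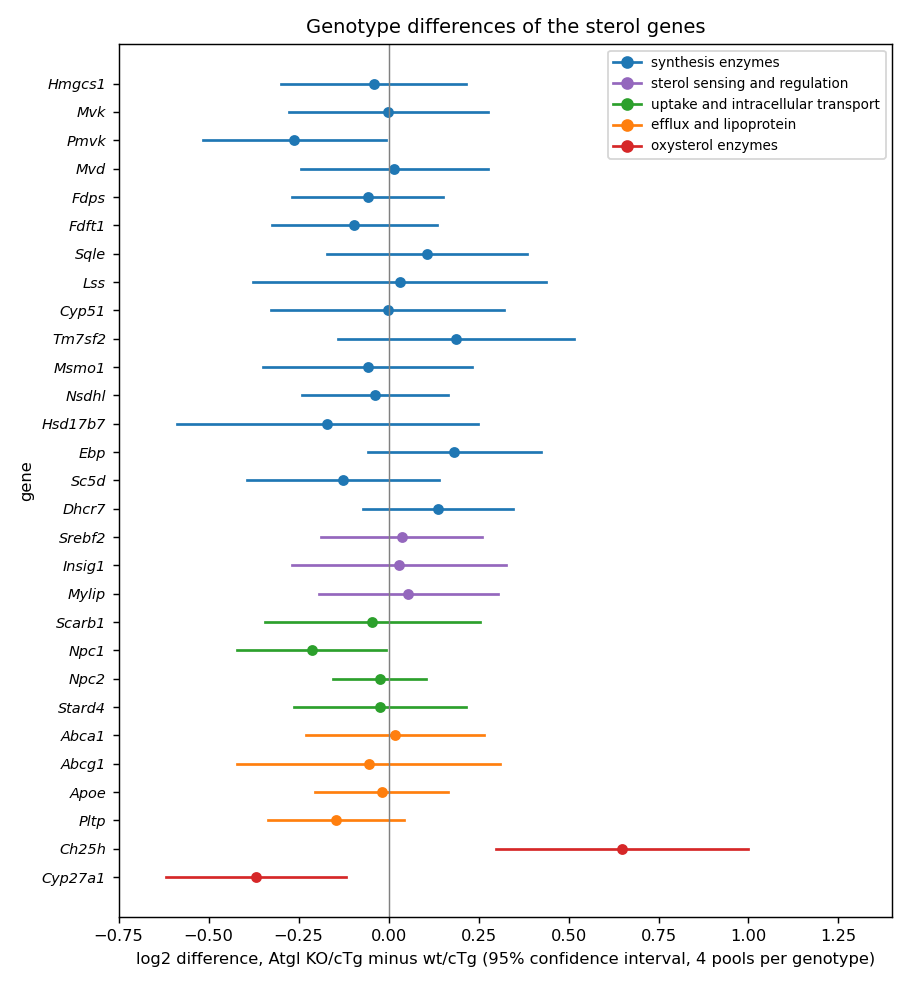
Log2 difference between genotypes (Atgl KO/cTg minus wt/cTg, x axis) for each of the 29 sterol genes (y axis), coloured by class. Points are limma estimates and lines their unadjusted 95% confidence intervals over 4 pools per genotype. The intervals of Ch25h, Cyp27a1, Npc1 and Pmvk leave out 0, and Ch25h and Cyp27a1 lie farthest from it on opposite sides.

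Ch25h encodes an enzyme that hydroxylates cholesterol on its side chain, making an oxysterol that holds SREBP2 back and activates liver X receptors. Its log2 signal (probe set 17364111) was 8.33, 7.83, 8.50 and 8.67 in Atgl KO/cTg pools 1 to 4 and 7.82, 7.71, 7.51 and 7.70 in wt/cTg pools 1 to 4. Every Atgl KO/cTg pool was above every wt/cTg pool, but pool 2 of Atgl KO/cTg only just, at 7.829 against 7.823 in the highest wt/cTg pool. The means were 8.33 ± 0.36 and 7.68 ± 0.13 (SD, n = 4), a log2 difference of 0.65 (SE 0.16, 95% confidence interval 0.30 to 1.00) and a ratio of 1.57. Limma's adjusted p was 0.313, and the exact two-sided permutation p was 0.0286, the smallest that 4 against 4 pools allow. Without Atgl KO/cTg replicate 2 the difference was 0.82 and limma's adjusted p 0.034. The gene therefore passed with that pool left out and did not pass with it. A second, dimmer Ch25h probe set (17358810), with a mean below the level filter, read 5.10, 4.47, 5.03 and 4.67 in Atgl KO/cTg and 4.68, 4.25, 4.22 and 4.33 in wt/cTg. Its log2 difference was 0.45 (exact permutation p = 0.0857), in the same direction but with overlapping genotypes.

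Alveolar macrophage markers were highest in Atgl KO/cTg pools 3 and 4, the pools in which Ch25h was highest. Their mean log2 signal over 10 markers was 8.83, 8.65, 9.18 and 8.96 in Atgl KO/cTg pools 1 to 4 and 8.76, 8.70, 8.72 and 8.82 in wt/cTg pools 1 to 4. Atgl KO/cTg pool 2 was the lowest Atgl KO/cTg pool both for this list and for Ch25h. In the list 6 markers lay higher and 4 lower in Atgl KO/cTg (median 0.05). None passed the adjusted threshold, and 3 had an unadjusted limma p under 0.05, all higher in Atgl KO/cTg. These were Ctsk, with a log2 difference of 0.79, Car4, with 0.37, and Plet1, with 0.34 and no overlap between genotypes. The other 7 ran from -0.11 (Siglecf) to 0.25 (Chil3), with Marco at -0.00122. Monocyte and interstitial macrophage markers had 9 of 11 lower (median -0.14), and neutrophil markers 7 of 7 tested higher (median 0.56). Endothelial, fibroblast and alveolar type 1 markers were also highest in Atgl KO/cTg pools 3 and 4 and lowest in pool 2 of that genotype. Alveolar type 2, monocyte and interstitial macrophage, neutrophil, goblet and B cell markers were highest in its pool 2. Club cell markers were highest in its pool 4 (mean log2 signal 12.07) and lowest in its pool 2, there by little (11.984 against 11.988 in pool 3). Their next highest Atgl KO/cTg pool was pool 1 (12.06), where for Ch25h it was pool 3. In wt/cTg, Ch25h and the club cell markers were highest in pool 1, and the alveolar macrophage markers in pool 4. Ch25h was lowest of wt/cTg in pool 3, and the club cell markers in pool 4. The part of these cell types in the Ch25h values was not tested.

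Cyp27a1 encodes the mitochondrial sterol hydroxylase that starts the acidic route of bile acid synthesis and also makes an oxysterol. Its log2 signal (probe set 17214368) was 6.74, 6.73, 6.95 and 6.85 in Atgl KO/cTg and 7.11, 7.02, 7.16 and 7.45 in wt/cTg. All 4 Atgl KO/cTg pools were below all 4 wt/cTg pools. The means were 6.82 ± 0.10 and 7.18 ± 0.19 (SD, n = 4), a log2 difference of -0.37 (SE 0.11, 95% confidence interval -0.62 to -0.12) and a ratio of 0.775. By limma the adjusted p came to 0.446, and by exact permutation p = 0.0286. The difference ran from -0.42 to -0.28 when each pool was left out, and was -0.25 without pool 2 of Atgl KO/cTg and pool 4 of wt/cTg together. The highest Cyp27a1 reading, in wt/cTg pool 4, was in the pool that was also the highest of the 8 for the mean log2 signal of alveolar type 2 (11.12), alveolar type 1 (9.35), endothelial (9.44) and fibroblast markers (9.77). Lower in Atgl KO/cTg, as Cyp27a1 was, lay 12 of 12 alveolar type 2 markers, 8 of 8 fibroblast markers (median log2 difference -0.42), 7 of 8 endothelial markers (-0.37) and 7 of 8 alveolar type 1 markers (-0.27). Monocyte and interstitial macrophage markers also lay lower for 9 of 11 (-0.14), while alveolar macrophage markers had 4 lower and 6 higher. The part of these cells in the Cyp27a1 values was not tested.

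**Figure D2:**
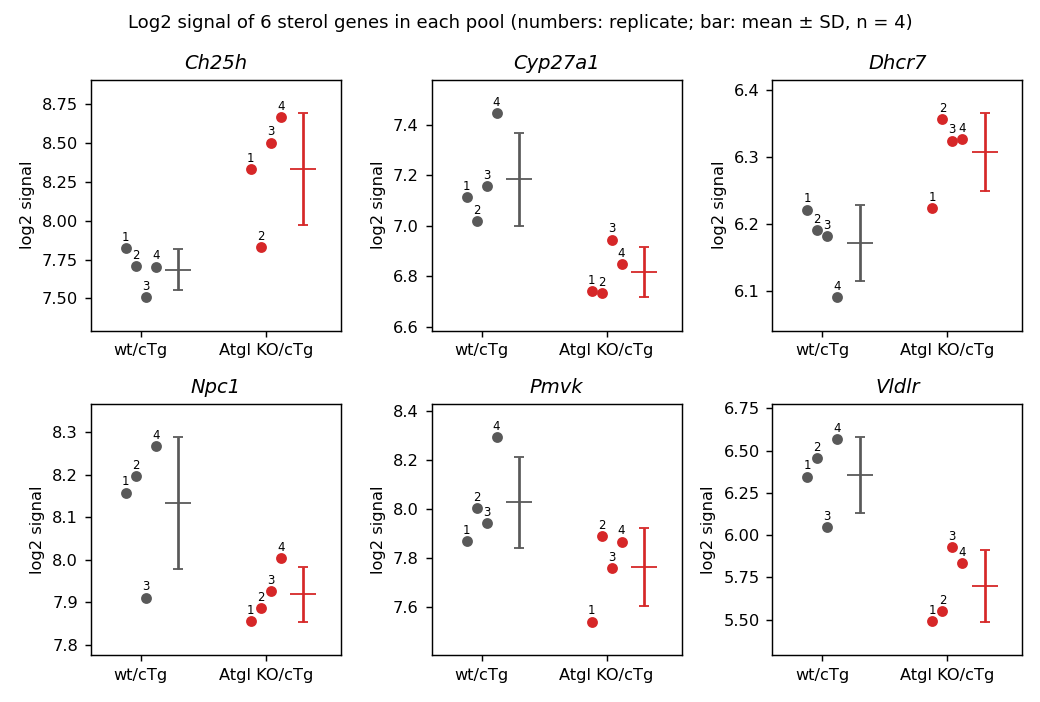
Log2 signal (y axis) of Ch25h, Cyp27a1, Dhcr7, Npc1, Pmvk and the lipoprotein receptor gene Vldlr in each wt/cTg pool (grey) and each Atgl KO/cTg pool (red), with the replicate number at each point and the mean ± SD (n = 4) beside it. The genotypes do not overlap for Ch25h, Cyp27a1, Dhcr7 and Vldlr, and overlap for Npc1 and Pmvk.

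The synthesis enzymes did not separate the genotypes. Of 16 with a value, 6 had a higher and 10 a lower mean in Atgl KO/cTg, with a median log2 difference of -0.02, and differences ran from -0.26 to 0.19. None passed limma's adjusted threshold (adjusted p 0.615 to 0.999). Their 95% confidence intervals together spanned -0.59 to 0.52. A doubling or a halving of the array signal (a log2 difference of 1 or -1) thus lay outside every interval. Signal above background was not tested, so this holds for array signal only. Among the enzymes up to squalene (Hmgcs1 to Fdft1) 5 of 6 lay below 0, and among those after it 5 of 10 did. The count up to squalene moved with the setting: Mvd was below 0 after median centring (-0.015), Mvk above 0 with age as a covariate (0.019), and Mvk (0.079) and Hmgcs1 (0.023) above 0 without wt/cTg replicate 1.

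Of the enzymes up to squalene, Pmvk, the kinase that adds the second phosphate to mevalonate, had the lowest difference. Its log2 signal was 7.54, 7.89, 7.76 and 7.87 in Atgl KO/cTg and 7.87, 8.003, 7.94 and 8.29 in wt/cTg, where Atgl KO/cTg pools 2 and 1 mark the highest and the lowest reading of their genotype. The ranges met, since Atgl KO/cTg pool 2 was above wt/cTg pool 1. Pmvk thus differed by -0.26 on the log2 scale (SE 0.12), with p = 0.615 after adjustment by limma and p = 0.0571 by exact permutation. Hmgcs1, whose promoter is shown above, read 8.88, 9.10, 8.99 and 8.75 in Atgl KO/cTg and 9.17, 9.15, 8.74 and 8.83 in wt/cTg, with a log2 difference of -0.04 (95% confidence interval -0.30 to 0.21). The genotypes overlapped fully. The 4 remaining genes had log2 differences of -0.000585 (Mvk, mevalonate kinase), 0.02 (Mvd, the decarboxylase that forms isopentenyl diphosphate), -0.06 (Fdps, farnesyl diphosphate synthase) and -0.10 (Fdft1, squalene synthase).

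After squalene, Dhcr7, which carries out the last reduction to cholesterol, was the gene whose genotypes did not overlap. It read 6.22, 6.36, 6.32 and 6.33 in Atgl KO/cTg and 6.22, 6.19, 6.18 and 6.09 in wt/cTg, and the nearest pools were 6.223 and 6.221. The log2 difference was 0.14 (SE 0.095, 95% confidence interval -0.07 to 0.35, limma adjusted p = 0.773, exact permutation p = 0.0286). Lss, the cyclase that forms lanosterol, had the widest spread among Atgl KO/cTg pools, with 5.48, 6.51, 6.004 and 5.90 against 6.09, 5.90, 5.94 and 5.83 in wt/cTg. Its log2 difference was 0.03 (SE 0.19), and Atgl KO/cTg pools 1 and 2 were the lowest and the highest of all 8. Sqle, squalene epoxidase and a rate-controlling step, read 8.15, 8.64, 8.25 and 8.19 in Atgl KO/cTg and 8.45, 8.17, 8.12 and 8.05 in wt/cTg (log2 difference 0.11). Tm7sf2, a sterol reductase, read 6.60, 7.16, 6.83 and 6.70 against 6.96, 6.57, 6.53 and 6.47 (0.19). Both were highest in Atgl KO/cTg pool 2 and next highest in wt/cTg pool 1. The ketoreductase Hsd17b7 had a log2 difference of -0.17, which was -0.056 without wt/cTg replicate 4, -0.37 without wt/cTg replicate 3 and -0.36 with runs of mouse numbers as a block. In that block fit wt/cTg replicate 3 was alone in its block, so it added nothing to the difference. The remaining log2 differences were 0.18 for the sterol isomerase Ebp, -0.13 for the desaturase Sc5d, -0.06 for the methyl oxidase Msmo1, -0.04 for the dehydrogenase Nsdhl and -0.00299 for the demethylase Cyp51.

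Single pools differed more than the genotypes did for the synthesis enzymes. Atgl KO/cTg pool 2 was the highest Atgl KO/cTg pool for 11 of the 16 enzymes, and wt/cTg pool 1 the highest wt/cTg pool for 11 of 16. The mean deviation of the 16 enzymes from each gene's mean over all pools was -0.13, 0.14, -0.03 and -0.0075 on the log2 scale in Atgl KO/cTg pools 1 to 4 and 0.18, 0.05, -0.13 and -0.08 in wt/cTg pools 1 to 4. High and low pools thus occurred in both genotypes. The 13 other genes had mean deviations of -0.09, -0.0026, 0.04 and 0.04 in Atgl KO/cTg and 0.04, 0.02, -0.12 and 0.06 in wt/cTg. The classes among them differed. The 3 sensing genes were high in the same pools as the synthesis enzymes, with 0.15 in Atgl KO/cTg pool 2 and 0.13 in wt/cTg pool 1, and the 4 uptake and transport genes read 0.07 and 0.08 there. The 4 efflux genes were below 0 in both pools (-0.08 and -0.02). wt/cTg pool 3 and Atgl KO/cTg pool 1 were low for the synthesis enzymes and for the other 13 genes. Goblet cell markers were highest in Atgl KO/cTg pool 2 (mean log2 signal of 8 markers 9.24, against 8.05 to 8.44 in the other Atgl KO/cTg pools), and in wt/cTg they were highest in pool 1 (8.22, against 7.07 to 7.98). Neutrophil markers were likewise highest in these pools of each genotype (8.12 and 7.54), as were B cell markers (8.308 and 8.55), the latter by little in Atgl KO/cTg (8.307 in pool 1). Other lists went the other way in a single genotype. Alveolar type 2 (10.64) and ciliated markers (7.44) were lowest of wt/cTg in pool 1. Alveolar type 2 markers were, however, highest of Atgl KO/cTg in pool 2 (10.51). Club cell, alveolar macrophage, alveolar type 1, endothelial and fibroblast markers were lowest of Atgl KO/cTg in pool 2. For club cell markers this was by little (11.984 against 11.988 in pool 3), and they were highest of wt/cTg in pool 1 (11.981). The part of these cells in the pool differences of the synthesis enzymes was not tested.

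**Figure D3:**
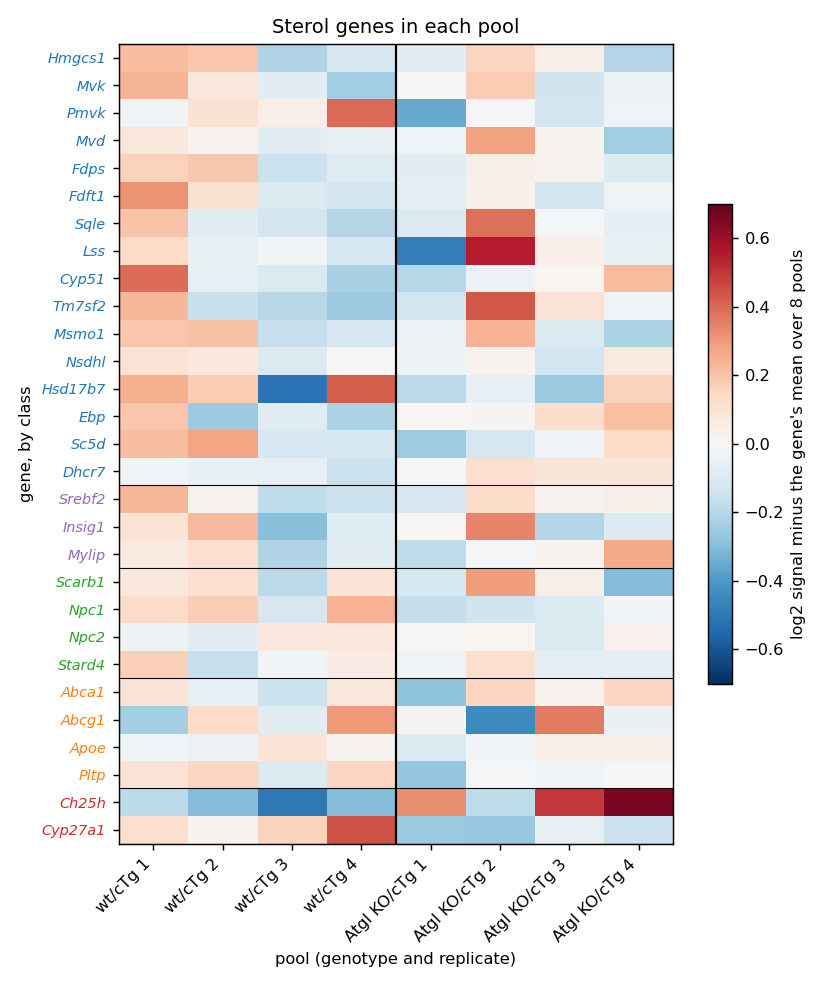
Log2 signal of each sterol gene (rows, by class) in each pool (columns, wt/cTg left of the line and Atgl KO/cTg right of it), as the difference from the gene's mean over 8 pools (colour scale). Synthesis enzymes are mostly red in wt/cTg 1 and Atgl KO/cTg 2, while Ch25h is blue in all wt/cTg pools and red in 3 of 4 Atgl KO/cTg pools.

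**Figure D4:**
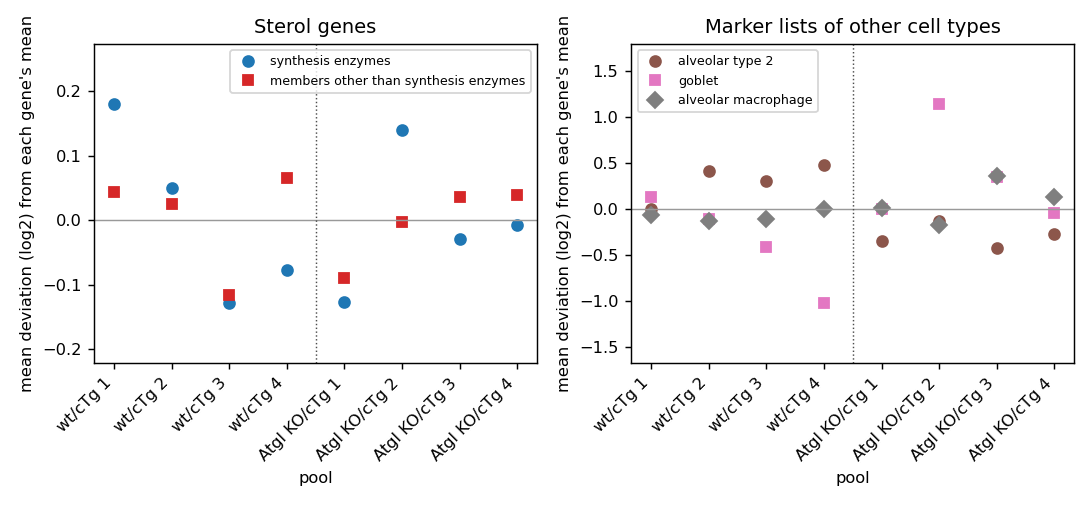
Mean deviation (log2, y axis) of the 16 synthesis enzymes and the 13 other sterol genes (left) and of 3 marker lists (right) in each pool (x axis). The synthesis enzymes reach 0.18 in wt/cTg 1 and 0.14 in Atgl KO/cTg 2, and the alveolar type 2 markers are lower in each Atgl KO/cTg pool than in each wt/cTg pool.

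The regulators of the pathway had nearly equal means. Srebf2 read 8.81, 9.05, 8.94 and 8.95 in Atgl KO/cTg and 9.15, 8.95, 8.74 and 8.77 in wt/cTg, a log2 difference of 0.04 (95% confidence interval -0.19 to 0.26). Insig1, a sterol-sensing anchor and itself a target of SREBP2, read 9.33, 9.66, 9.11 and 9.22 against 9.41, 9.54, 9.02 and 9.23, a log2 difference of 0.03 (95% confidence interval -0.27 to 0.33). Mylip, a ubiquitin ligase that marks lipoprotein receptors for breakdown and is a liver X receptor target, had a log2 difference of 0.05 (95% confidence interval -0.19 to 0.30). The genotypes overlapped for all 3 genes.

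Genes of uptake and transport inside the cell had lower means in Atgl KO/cTg, and for 3 of 4 the size of the difference was under 0.1. The sign of those 3 was not stable: Npc2 was 0.021 after quantile normalization, and with single pools left out Npc2 reached 0.0050, Stard4 0.028 and Scarb1 0.047. Npc1, which moves cholesterol out of lysosomes, read 7.86, 7.89, 7.93 and 8.005 in Atgl KO/cTg and 8.16, 8.20, 7.91 and 8.27 in wt/cTg. wt/cTg pool 3 lay within the Atgl KO/cTg range and the other wt/cTg pools above it. The log2 difference was -0.21 (SE 0.09, 95% confidence interval -0.42 to -0.01, limma adjusted p = 0.615, exact permutation p = 0.0857). A second Npc1 probe set, below the level filter, had a log2 difference of -0.07. Npc2, the soluble partner of Npc1, had a log2 difference of -0.02 (95% confidence interval -0.15 to 0.11), the narrowest interval of the 29 genes. Scarb1, the receptor for high density lipoprotein, had a log2 difference of -0.05, and Stard4, a sterol carrier in the cytosol, of -0.02.

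Genes of efflux did not separate the genotypes. Abca1, the transporter that loads cholesterol on apolipoprotein A-I, read 7.69, 8.12, 7.99 and 8.11 in Atgl KO/cTg and 8.06, 7.91, 7.82 and 8.05 in wt/cTg, a log2 difference of 0.02 (95% confidence interval -0.23 to 0.27). Abcg1, which passes sterol to high density lipoprotein, read 7.91, 7.45, 8.26 and 7.85 against 7.66, 8.03, 7.82 and 8.19, a log2 difference of -0.06 (95% confidence interval -0.42 to 0.31). Its highest and lowest pools, Atgl KO/cTg 3 and 2, were also the highest and lowest of all pools for the alveolar macrophage markers. Atgl KO/cTg 2 was likewise the lowest of all pools for alveolar type 1 (8.35), endothelial (8.27) and fibroblast markers (8.78). Within wt/cTg, Abcg1 and the alveolar macrophage markers were both highest in pool 4, but Abcg1 was lowest in pool 1 and the markers in pool 2. The part of these cells was not tested. Apoe, an apolipoprotein that accepts exported sterol, had a log2 difference of -0.02 (95% confidence interval -0.20 to 0.16). Pltp, the phospholipid transfer protein, read 9.85, 10.10, 10.09 and 10.12 in Atgl KO/cTg and 10.21, 10.26, 10.01 and 10.26 in wt/cTg, a log2 difference of -0.15 (limma adjusted p = 0.722). Atgl KO/cTg pool 1 was low and the other pools of the genotype were close together.

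When synthesis enzymes were set against the other 13 genes, both medians lay at -0.02, while the lowest and the highest difference lay farther apart in the second set. Within 0.2 of 0 lay 15 of 16 synthesis enzymes and 10 of 13 other genes, the exceptions among the latter being Ch25h, Cyp27a1 and Npc1. The median size of the difference, without its sign, was 0.08 in the synthesis enzymes, 0.05 in the other genes and 0.09 in all genes tested. The pool-to-pool SD within genotype had a median of 0.17 both over the 29 genes and over all genes tested.

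Of 58 further genes of the pathway, 40 were tested and none passed limma's adjusted threshold. In these 22 lay above and 18 below 0 (median log2 difference 0.0092), and 3 had an unadjusted limma p under 0.05. This share, 7.5%, was near the 7.95% of all genes tested. All 3 were lower in Atgl KO/cTg and are given as values. Vldlr, a receptor for triglyceride-rich lipoproteins, read 5.49, 5.55, 5.93 and 5.83 in Atgl KO/cTg and 6.35, 6.46, 6.05 and 6.57 in wt/cTg, with no overlap. Its log2 difference was -0.65 (SE 0.15, 95% confidence interval -0.98 to -0.33, limma adjusted p = 0.253, exact permutation p = 0.0286), and it ran from -0.76 to -0.58 when each pool was left out. Apoc1, an apolipoprotein encoded beside Apoe, read 9.24, 9.63, 9.01 and 9.67 against 9.44, 9.82, 9.94 and 10.22, a log2 difference of -0.47 (adjusted p = 0.526 by limma), with overlapping genotypes. Cd36, a scavenger receptor and fatty acid transporter, differed by -0.19 (adjusted p = 0.561 by limma). Srebf1, which encodes the related factor of fatty acid synthesis, had a log2 difference of 0.18 (adjusted p = 0.8), and Nr1h3, which encodes liver X receptor alpha, of -0.02 (adjusted p = 0.988). Nr1h2 had no probe set annotated with it alone here and was not analysed. Vldlr, Apoc1 and Cd36 were lower in Atgl KO/cTg. Lower there, too, were alveolar type 2 (12 of 12), fibroblast (8 of 8), endothelial (7 of 8) and alveolar type 1 markers (7 of 8). Monocyte and interstitial macrophage markers also lay lower for 9 of 11. The part of those cells was not tested.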

How the data were processed

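Club cell RNA (miRNeasy Micro kit) was amplified from 50 ng (Ovation Pico WTA System V2) and biotin-labelled, per the labels' protocols. Signals on the log2 scale, as the authors deposited them, were used with no further normalization. The values themselves showed the log2 scale (1.85 to 13.54, array medians 5.12 to 5.24). Software, background correction and normalization: not given in the sources used here. Signal above background was not tested. Of 41345 probe sets, 23521 had 1 gene symbol, 1814 several and 16010 none. A gene was tested if its mean over 8 arrays exceeded 5.18, the median over all probe sets. Genotypes were compared across all genes with limma 3.58.1 in R 4.3.3 (lmFit, eBayes with a variance trend, two-sided, Benjamini-Hochberg over 13112 genes, threshold 0.05). Intervals are limma's, unadjusted. Single genes also had an exact two-sided permutation test over 70 arrangements (smallest p 0.0286). Steps were tested on simulated data. Correlations between arrays were 0.965 to 0.985. Precision is limited by how few arrays there were.

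The genes and lists were chosen with earlier results of these data known. All listed genes were to be named, with each pool's value for those with an unadjusted p under 0.05 or no overlap. The same rule named Srebf1, Nr1h2, Nr1h3, some genes not reported here and the further pathway genes with an unadjusted p under 0.05. Values of each pool for other genes, and the Ch25h and Cyp27a1 promoters, were added after the values were seen. Alternatives covered the level filter, normalization, variance trend, array weights, averaging of probe sets, age, a score of sex-linked transcripts, the threshold, leaving out each array, and blocks of adjoining mouse numbers. Leaving out the 2 arrays with extreme first-component scores was added after seeing the data.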

Additional observations from a re-analysis of the deposited data

Results flagged for a closer look

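In 60 groups of 4 pools (29 sterol genes and Pnpla2, both genotypes), 2 held a pool far from the other 3 by Dixon's ratio, where chance gives about 1 in 20. Scarb1 read 6.739 in wt/cTg pool 3, against 7.003 to 7.05 in the other wt/cTg pools. Pltp read 9.846 in Atgl KO/cTg pool 1, against 10.09 to 10.12 in the other Atgl KO/cTg pools.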

How the results depend on the processing

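None of the 29 sterol genes passed the adjusted limma threshold under any alternative except 1, Ch25h, when Atgl KO/cTg replicate 2 was left out, so that 0 to 1 passed when each replicate was left out. Over 18 alternatives Ch25h and Vldlr kept an unadjusted p under 0.05 in 18, Cyp27a1 in 17, Pmvk in 9 and Npc1 in 5, and Pnpla2 passed in all. Genes of the whole table past the threshold were 13, and 7 without a level filter, 1 after quantile normalization, 19 after median centring (1 higher, 18 lower), 1 without the variance trend, 23 with array weights, 7 with age, 3 with runs of mouse numbers, 9 with the sex-linked score, 8 without the 2 arrays with extreme first-component scores and 20 at an adjusted p of 0.1. The count was 1 to 25 when each replicate was left out (1 without Atgl KO/cTg replicate 1 and 25 without wt/cTg replicate 1). Signs of small log2 differences turned in some settings: Npc2 0.021 after quantile normalization; Mvd -0.015, Insig1 -0.0016 and Abca1 -0.011 after median centring; Cyp51 0.031, Insig1 -0.047, Abcg1 0.053 and Nr1h3 0.0036 with array weights. With age, Mvk was 0.019 and Cyp51 0.0030. With runs of mouse numbers, Srebf2 was -0.036, Mvd -0.038, Insig1 -0.099, Abca1 -0.018 and Apoe 0.020. Without those 2 arrays, Srebf2 was -0.044, Mvd -0.091, Sqle -0.055, Lss -0.18, Insig1 -0.10, Abca1 -5.3e-05 and Abcg1 0.17. With each replicate left out, signs turned within Abca1 -0.029 to 0.12, Abcg1 -0.19 to 0.083, Apoe -0.038 to 0.012, Cyp51 -0.080 to 0.13, Hmgcs1 -0.12 to 0.023, Insig1 -0.080 to 0.11, Lss -0.15 to 0.20, Msmo1 -0.15 to 0.0060, Mvd -0.075 to 0.099, Mvk -0.081 to 0.079, Mylip -0.025 to 0.12, Npc2 -0.053 to 0.0050, Nr1h3 -0.093 to 0.038, Nsdhl -0.078 to 0.00011, Scarb1 -0.15 to 0.047, Sqle -0.0039 to 0.19, Srebf2 -0.018 to 0.12 and Stard4 -0.081 to 0.028. The cause was not tested. The design text speaks of 4 sets, but the labels give no replicate numbers and do not tell which samples form a set. No paired analysis was therefore made, and the main fit ignored any such sets. Mouse numbers of some pools adjoin between genotypes, which the fit with runs of mouse numbers took up.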
